A study of Mus musculus with 12 samples.

Results

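The 7 genes followed here mark naive, memory and stem-like T cells: Tcf7, Lef1, Klf2, Il7r, Slamf6, Ccr7 and S1pr1. All 7 were found by symbol among the 32285 genes of the feature lists, and they were measured in T cells only. A T cell was a cell of a tumour with at least 2 UMIs (unique molecular identifiers, each counting 1 captured RNA molecule) of Cd3e, Cd3d and Cd3g together and no UMI of Lyz2, a myeloid gene. Of 55005 kept and assigned cells, 2992 were T cells, which is 6.24% of the kept tumour cells. Cells with a Cd8a or Cd8b1 UMI and none of Cd4 were taken as CD8 T cells (836 cells), and those with a Cd4 UMI and none of the CD8 genes as CD4 T cells (1036 cells). Neither was found in 1093 T cells and both in 27, and these entered no comparison of the subsets.

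The cells came from mouse melanoma tumours grown from 5 cell lines, of which SCC31 and SCC40 are listed as rejected by the mice. The lines SCC32, SCC35 and SCC37 are listed as non-rejected. Sampling fell on days 6, 10 and 16 for every line and also on day 20 for the non-rejected ones, with cells of each line profiled at day 0 as well. The labels give no treatment and no strain, age or genotype of the mice. Each tumour was marked with an antibody hashtag, live cells were sorted, and the hashed cells were pooled into 1 library per line plus a mixed library with tumour 3 of SCC31, SCC35 and SCC40. Levels are counts per 1000000 gene UMIs (CPM), summed over the cells of a subset in a tumour, so the tumour was the replicate, and each was listed with its own mouse.

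TCF-1, the product of Tcf7, and LEF-1, the product of Lef1, are related DNA-binding factors that keep T cells in a naive or self-renewing state, and stem-like CD8 T cells in tumours are recognised by TCF-1. KLF2 is a transcription factor of resting T cells that drives S1pr1, the receptor by which T cells leave tissue along a lipid gradient. Ccr7 encodes the chemokine receptor that brings naive and central memory T cells, and mature dendritic cells, into lymph nodes. Il7r encodes the receptor subunit for the survival cytokine interleukin 7, and Slamf6 a surface receptor found on stem-like CD8 T cells and on follicular helper and other T cells.

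The 6 libraries held 2366 to 20690 barcodes, and the kept cells had medians of 2080.5 to 6255 UMIs. The SCC31 library held only 15 T cells, so most SCC31 values rest on tumour 3 in the mixed library. No SCC31 tumour of day 16 had at least 10 T cells, so the day 16 values come from the other lines. Any pair of libraries shared 41 to 498 barcode sequences, at most 3.47% of either library. At least 10 CD8 T cells were found in 24 of 43 tumours and at least 10 CD4 T cells in 21. These sums held 38028 to 304342 UMIs for CD8 and 24535 to 463737 UMIs for CD4, so 1 count of a gene was worth several CPM and low values were coarse. All 7 T cell markers (the 3 Cd3 genes, Trac, Trbc1, Trbc2 and Cd5) were found in both subsets at every day. Markers of other cells were present in the CD8 sums: the B cell sum reached 28.2 CPM (with Cd79a and Ms4a1 at 0 at every day), the macrophage sum 629 CPM and the fibroblast sum 4915 CPM, all at day 16. Fewer cells expressing a gene and less RNA per cell cannot be told apart in such sums.

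Promoters are shown for Tcf7 and Klf2, the members on which most comparisons below turn. Each is 250 bases before to 50 after a transcription start, from RefSeq with build GRCm38.p6, read 5′ to 3′ along the gene. Capitals mark matches to the motifs GTAAACA (FOXO factors) or CCACCC (KLF factors), searched on both strands.
Tcf7, chr11:52282546-52282845, minus strand: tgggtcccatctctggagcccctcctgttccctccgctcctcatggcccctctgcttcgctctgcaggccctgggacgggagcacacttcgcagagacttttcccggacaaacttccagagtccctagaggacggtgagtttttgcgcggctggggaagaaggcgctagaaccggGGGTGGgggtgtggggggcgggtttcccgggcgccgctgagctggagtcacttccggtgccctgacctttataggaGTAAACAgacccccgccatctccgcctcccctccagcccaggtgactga
Klf2, chr8:72318812-72319111, plus strand: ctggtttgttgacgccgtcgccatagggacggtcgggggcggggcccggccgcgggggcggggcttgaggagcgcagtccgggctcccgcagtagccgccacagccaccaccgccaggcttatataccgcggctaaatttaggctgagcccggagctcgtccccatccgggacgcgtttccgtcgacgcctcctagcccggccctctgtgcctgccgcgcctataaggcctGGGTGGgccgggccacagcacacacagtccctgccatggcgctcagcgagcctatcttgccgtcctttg
Entries were present for 9 promoters of Tcf7, Lef1, Klf2, Il7r and Slamf6. These include 4 starts of Lef1, some overlapping, and 2 of Tcf7, of which the one not shown held none of the motifs. The FOXO motif was in 1 of the 9, the Tcf7 promoter above, and in 3.65% of all 32851 promoters of that length. The KLF motif was in 5 of the 9, which belong to Klf2, Lef1 and Tcf7 only, and in 31.5% of all, and the TCF/LEF motif CTTTGAT was in 0 of the 9 and in 3.73% of all. The genes lie on chromosomes 11 (Tcf7 and Ccr7), 3 (Lef1 and S1pr1), 8 (Klf2), 15 (Il7r) and 1 (Slamf6) of GRCm38, and all are protein-coding.

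Each member was first set against other cells of the tumours, some of which express Ccr7 or Klf2 themselves. Over the pooled CD8 T cells, Tcf7 stood at 45.7 CPM (125 counts, 95% exact Poisson interval 38.1 to 54.5), against 12.7 CPM in CD4 T cells (9.16 to 17.2) and 2.68 CPM in 8445 myeloid cells with Lyz2 and no Cd3 UMI. Lef1 was at 25.2 CPM in CD8 and 21.5 CPM in CD4 T cells and at 0.596 CPM in myeloid cells. Both factors were thus many times higher in T cells than in myeloid cells, and the intervals (counting error only) lay far apart for Tcf7 between CD8 and CD4 cells. Il7r was at 58.5 CPM in CD8 and 83.8 CPM in CD4 T cells against 22.3 CPM in myeloid cells. S1pr1 was at 19.8 and 12.4 CPM against 3.45 CPM.

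Slamf6 in CD8 T cells, at 12.4 CPM (8.61 to 17.4), was at the myeloid level of 11.7 CPM. CD4 T cells, at 26.6 CPM, stood above it, as did T cells with neither Cd4 nor CD8 UMIs, at 20.8 CPM. In tumour cells with neither Cd3 nor Lyz2 UMIs it was at 0.451 CPM. Ccr7 was at 142 CPM in CD8 and 95.6 CPM in CD4 T cells, and at 38.4 CPM in myeloid cells. Klf2 was not higher in T cells than in other cells. It was at 139.7 CPM in CD8 and 111 CPM in CD4 T cells, below the 242 CPM of myeloid cells and the 399 CPM of 34910 tumour cells with neither Cd3 nor Lyz2 UMIs, which include malignant, stromal and vessel cells. At day 0 Klf2 stood at 83.5 CPM, while Ccr7, Il7r and Slamf6 were below 1 CPM.

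Most T cells showed no member at all at this depth. None of the 7 was found in 55.4% of CD8 T cells (median 1742 UMIs) and 58.7% of CD4 T cells (median 1913.5 UMIs). A Tcf7 UMI was present in 10.8% of CD8 T cells and 3.09% of CD4 T cells, against 0.924% of myeloid cells, at median depths of 2154, 2119.5 and 2322 UMIs. Thinned to 1000 UMIs per cell, which left out 107 shallower CD8 and 74 shallower CD4 cells, the T cell shares were 5.35% and 1.14%. A Klf2 UMI was present in 20.1% of CD8 and 11.1% of CD4 T cells, against 30.3% of myeloid cells, so these shares lay under the level in cells of another type.

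**Figure D1:**
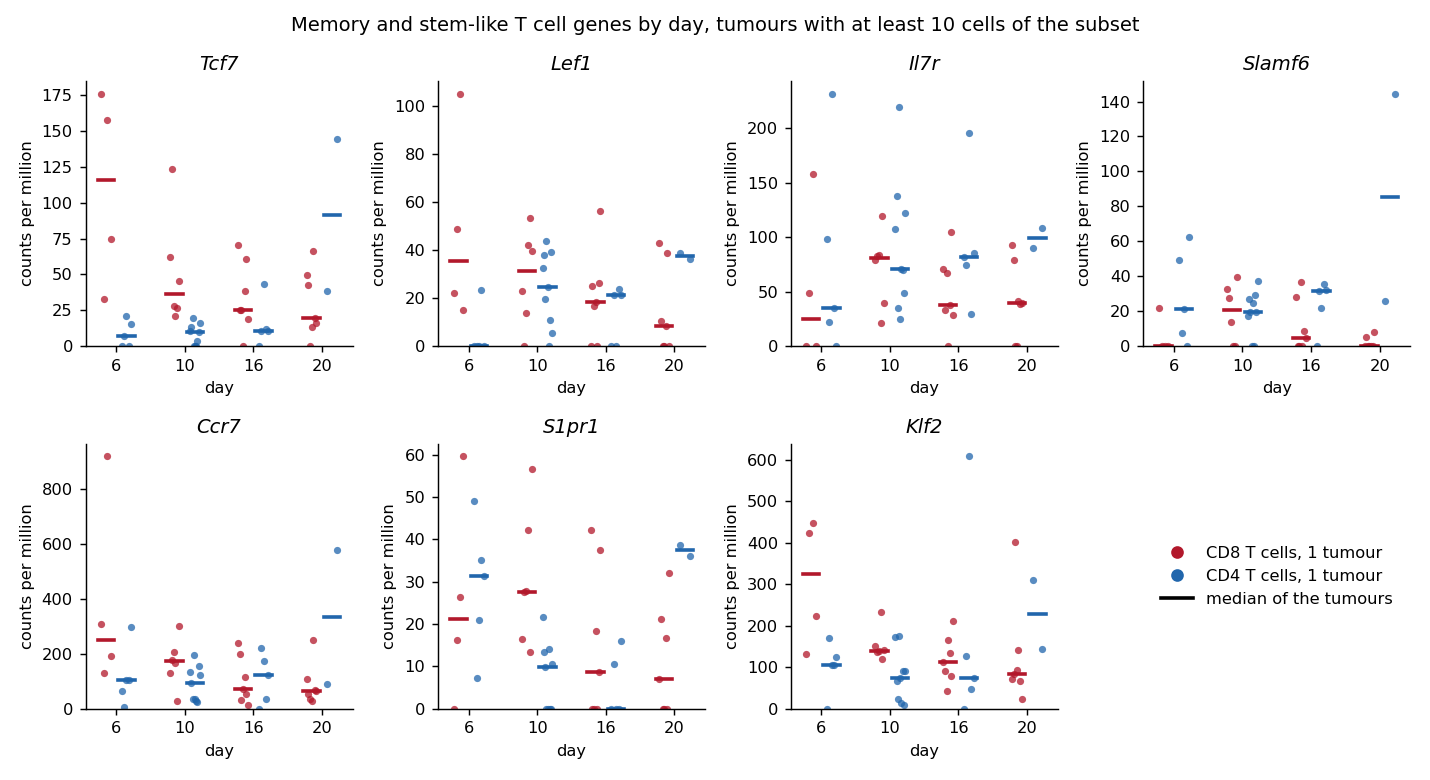
Level (CPM) of each gene in CD8 (red) and CD4 (blue) T cells, with 1 point per tumour that had at least 10 cells of the subset and a bar at the median, by day on an axis of equal steps. Tcf7, Ccr7 and Klf2 medians in CD8 T cells are highest at day 6, where there are 4 tumours.

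The first comparison asked how the subsets differ within a tumour, in the 17 tumours with at least 10 cells of each. Tcf7 was higher in CD8 than in CD4 T cells in 15 of them. In CD8 T cells the lowest of the 17 tumours was at 18.8 CPM, the median at 45.3 and the highest at 176 CPM, and in CD4 T cells they were 0, 10.8 and 144.5 CPM. The ranges overlapped, although within a tumour the order was the reverse in only SCC32 day 20 tumour 2 (42.4 against 144.5 CPM) and SCC35 day 16 tumour 1 (25.2 against 43.4 CPM). The mean difference was 1.365 ± 1.4998 on the log2(CPM + 10) scale (SD, n = 17, two-sided exact sign-flip test, p = 0.00145, unadjusted).

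Slamf6 went the other way and was lower in CD8 T cells in 12 tumours, higher in 4 and 0 in both subsets of 1. Its lowest, median and highest levels were 0, 4.69 and 39.7 CPM in CD8 and 0, 27.0 and 144.5 CPM in CD4 T cells. The mean difference was -1.03 ± 1.32 on the same scale (n = 17, exact sign-flip p = 0.00644). Without cells that had a UMI of other cell types' markers, described below, the Slamf6 difference was -0.82 (12 tumours, exact sign-flip p = 0.0967) and that of Tcf7 was 1.60 (p = 0.00537).

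The other 5 members had exact sign-flip p values of 0.0772 (Lef1), 0.0854 (Klf2), 0.271 (S1pr1), 0.313 (Ccr7) and 0.383 (Il7r), which does not show that they are alike in the subsets. Mean differences were 0.56 ± 1.22 for Lef1, 0.84 ± 1.88 for Klf2, 0.36 ± 1.32 for S1pr1, 0.55 ± 2.21 for Ccr7 and -0.30 ± 1.34 for Il7r (SD, n = 17). These 7 tests were added because the edgeR fit, with its low count filter, tested only Klf2 and Ccr7 of the members. It called 0 of those 2, where 21.4% of all 1395 genes tested were called. Klf2 had a log2 fold change of 0.51 (SE 0.37, adjusted p = 0.350) and Ccr7 of 0.43 (SE 0.42, adjusted p = 0.513) by edgeR's quasi-likelihood test with Benjamini-Hochberg adjustment over all genes. Without the filter, 2.83% of 15273 genes were called, and of the members Tcf7 was (log2 fold change 1.82, SE 0.31, edgeR adjusted p = 1.02e-06), while Slamf6 was not (-1.12, SE 0.37, adjusted p = 0.0847). That fit gave smaller SEs for the same genes (Klf2 0.20 against 0.37 with the filter, Ccr7 0.20 against 0.42). Its p values thus rest on a smaller spread between tumours than the filtered fit found.

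**Figure D2:**
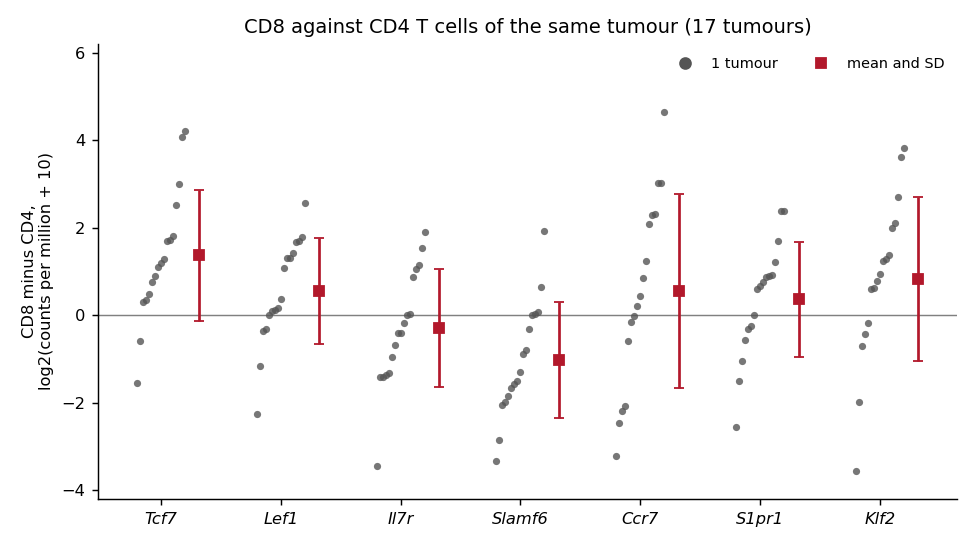
Difference between CD8 and CD4 T cells of the same tumour on the log2(CPM + 10) scale, 1 grey point for each of 17 tumours, with the mean and SD in red. Tcf7 lies above 0 in 15 tumours and Slamf6 below 0 in 12.

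Other genes of the lists set the members in context. Of 20 other naive, memory and stem-like genes, 6 were tested and 4 were called: Xcl1, a chemokine of stem-like and effector CD8 cells (log2 fold change 2.03, SE 0.48), and Satb1, a chromatin organiser (0.54, SE 0.18), were higher in CD8 T cells, and Ets1 (-0.60, SE 0.15) and Ltb (-0.52, SE 0.15) lower. The list's median was 0.14, against -0.00 over all genes. Of 7 tested exhaustion and activation receptors, 5 were lower in CD8 T cells (median -0.78), with Ctla4 at -1.67 (SE 0.20) and Lag3 at -1.11 (SE 0.22). Ctla4 is also on the list of regulatory T cell genes, and regulatory T cells are part of the CD4 subset. All 5 tested genes of that list were lower in CD8 T cells (median -1.67), with Tnfrsf4 at -4.01 (SE 0.31). Of 7 tested cytotoxic and effector genes, 4 were higher (Gzma 3.84, SE 0.45; Ccl5 2.52, SE 0.27) and 2 lower (Ifng -2.24, SE 0.27). Of 3 tested partners and ligands of the members, Il2rg, the subunit shared with the interleukin 7 receptor, was lower in CD8 T cells (-0.46, SE 0.12). All of these had edgeR adjusted p under the threshold of 0.05, from 9.62e-07 or less for Gzma, Ccl5 and Ctla4 to 0.0336 for Satb1.

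The next comparisons followed the members over days. Tcf7 in CD8 T cells had a mean of 110.3 ± 68.1 CPM at day 6 (SD, n = 4 tumours), 51.2 ± 38.7 at day 10 (n = 6), 34.1 ± 24.6 at day 16 (n = 7) and 29.7 ± 23.7 at day 20 (n = 7). The 4 tumours of day 6 were SCC31 tumour 3 at 176 CPM, SCC40 tumours 1 and 3 at 158 and 74.5 CPM and SCC32 tumour 1 at 32.6 CPM, and those of the later days ranged from 0 to 124 CPM. The lines differ between the days, so these means mix line and day, and the day 6 sums hold 48 cells in all. Lef1 means were 47.7 ± 41.0, 28.7 ± 19.9, 20.4 ± 19.1 and 14.4 ± 18.6 CPM on the same days, with values at 0 in 6 of 24 tumours. The ranges of neighbouring days overlapped for both factors.

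Ccr7 in CD8 T cells had a mean of 388 ± 362 CPM at day 6, 169 ± 90.1 at day 10, 104 ± 85.8 at day 16 and 86.2 ± 76.7 at day 20. SCC40 day 6 tumour 1, at 920 CPM, was the highest of all 24, and the other 3 of day 6 were at 308, 194 and 130.4 CPM. S1pr1 means were 25.5 ± 25.1, 30.6 ± 16.3, 15.3 ± 18.2 and 10.99 ± 12.6 CPM, and those of Il7r 51.7 ± 74.4, 70.8 ± 35.2, 48.9 ± 34.4 and 41.8 ± 35.4 CPM. Neither showed tumours of 1 day apart from those of the others. Slamf6 was at 0 in 13 of 24 tumours, and its day 20 sums held 2 counts in 289 cells, against 20 counts in 198 cells at day 10.

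Within lines, day 6 could be set against the last day in SCC32 (day 20) and SCC40 (day 16). Klf2, the quiescence factor, was the 1 member that fell in the fit. In SCC32 it was at 424 CPM in the 1 tumour of day 6, and at 71.3 and 84.8 CPM in those of day 20. In SCC40 it was at 447 and 223 CPM at day 6 and at 78.5 and 211 CPM at day 16. The day 6 tumours were all above those of the last day, by little in the case of SCC40 day 6 tumour 3. The log2 fold change, averaged over both lines, was -1.81 (SE 0.48, edgeR adjusted p = 0.0331). It was 1 of 4 members tested, where 6.22% of 2542 genes were called and 3.7% fell.

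The Klf2 call rested on few cells and single tumours. The 3 day 6 tumours had 10, 11 and 11 CD8 T cells, with 26, 17 and 15 Klf2 counts. The call was lost without SCC32 day 6 tumour 1 (log2 fold change -1.04, adjusted p = 0.480), which left SCC40 alone, and without SCC32 day 20 tumour 1 (adjusted p = 0.0956) or 2 (0.0735), SCC40 day 6 tumour 1 (0.0742) or 3 (0.0622) and SCC40 day 16 tumour 1 (0.108). DESeq2 gave an adjusted p of 0.0636. Summed fibroblast markers (Col1a1, Col3a1 and Pdgfra) stood at 2673 CPM in the CD8 T cells of SCC32 day 6 tumour 1, against 21.4 and 138 CPM in its day 20 tumours, and at 0 to 61.0 CPM in the SCC40 tumours named. Their part in the result was not tested in the fit, since too few CD8 T cells free of other cells' UMIs were left at day 6. In such cells, Klf2 was at 269.9 CPM (23 counts, 38 cells) over all day 6 tumours and at 88.1, 111 and 88.9 CPM at days 10, 16 and 20.

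**Figure D3:**
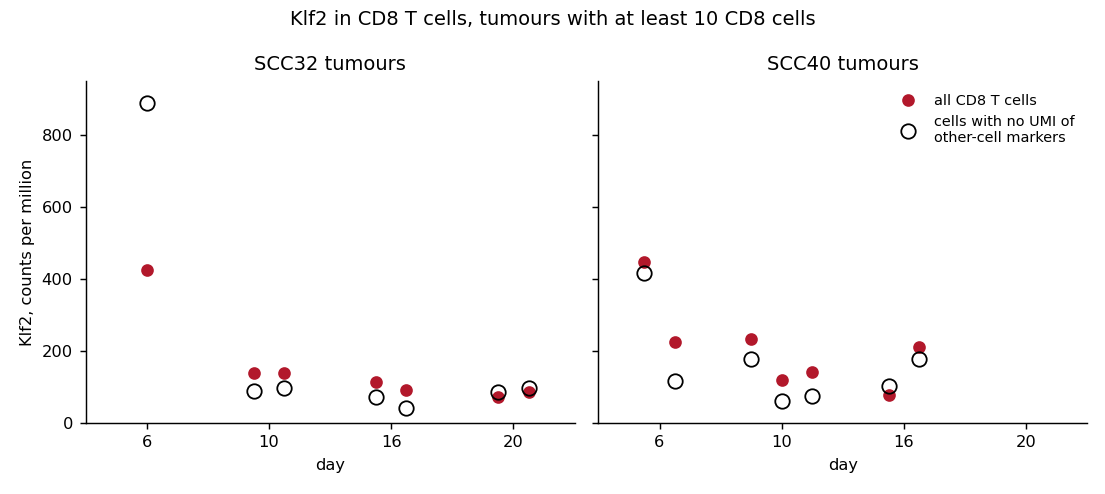
Klf2 in CD8 T cells of SCC32 and SCC40 tumours with at least 10 CD8 T cells, in CPM by day on an axis of equal steps, over all their CD8 T cells (red) and over cells with no UMI of 25 marker genes of other cells (open). The open point at 890 CPM in SCC32 rests on 5 counts in 4 cells.

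The other 3 members tested in that fit did not pass. Ccr7 had a log2 fold change of -2.49 (SE 0.81, edgeR adjusted p = 0.0743), Tcf7 of -0.59 (SE 0.92, adjusted p = 0.770) and Il7r of 0.31 (SE 0.98, adjusted p = 0.910). Ccr7 passed without the low count filter (-2.09, SE 0.52, edgeR adjusted p = 0.00510, where 2.44% of 14205 genes were called). Without the mixed library its log2 fold change was -2.96. That setting left SCC40 day 6 tumour 1, at 920 CPM, as the only day 6 tumour of SCC40. Without the filter the SE of Ccr7 was smaller, as in the comparison of the subsets. Lef1, S1pr1 and Slamf6 had too few counts for the filter. The difference between SCC32 and SCC40 in these changes was called for 0 of the 4 members (lowest adjusted p = 0.968, lowest unadjusted p = 0.0411).

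Genes of other lists rose in the same CD8 contrast. T cell markers moved with them: their sum had a median of 1906 CPM in the CD8 sums of day 6 (lowest 1222 CPM), 3699 CPM at day 16 and 3579 CPM at day 20 over all lines, and its part in these changes was not tested. Of 10 tested exhaustion and activation receptors, 4 rose by the last day: Pdcd1, which encodes PD-1 (2.92, SE 0.61), Tigit (4.39, SE 1.19), Tox, the exhaustion factor (3.89, SE 1.10), and Cd160 (4.38, SE 1.29). The list's median log2 fold change was 3.15, against 0.04 over all genes. Of 14 tested naive, memory and stem-like genes other than the members, Ets1 rose (1.60, SE 0.43) and Igfbp4, which marks naive T cells, fell (-2.99, SE 0.87). Sh2d1a, which encodes the adaptor SAP that binds SLAM family receptors such as SLAMF6, rose (2.49, SE 0.67), 1 of 5 tested partners and ligands. Among 12 tested cytotoxic and effector genes, Gzmk (2.97, SE 0.69) and Nkg7 (1.45, SE 0.37) rose. The edgeR adjusted p of these genes lay between 0.0113 and 0.0465.

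From day 6 to day 10, over SCC31, SCC32 and SCC40, 0 of the 4 members tested in CD8 T cells were called (edgeR adjusted p from 0.521 to 0.804), beside 0.275% of 2542 genes. None had an unadjusted p under 0.05, and Klf2 was lowest at 0.0895.

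In CD4 T cells no member was called over the days. Tcf7 had a mean of 8.82 ± 9.41 CPM at day 6 (SD, n = 5 tumours), 8.16 ± 7.52 at day 10 (n = 9), 15.3 ± 16.4 at day 16 (n = 5) and 91.6 ± 74.8 at day 20 (n = 2, both SCC32, at 38.7 and 144.5 CPM). The day 20 values rest on 7 counts in 40 cells. Lef1 was at 0 in 4 of the 5 tumours of day 6, and SCC40 tumour 1 was at 23.4 CPM. Its means were 23.8 ± 15.8 CPM at day 10, 13.3 ± 12.2 at day 16 and 37.4 ± 1.85 at day 20. S1pr1 was found in all 5 tumours of day 6, from 7.36 to 49.2 CPM, and in 5 of 9 at day 10, where its mean was 7.74 ± 8.04 CPM against 28.8 ± 15.6 CPM.

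Il7r stayed between means of 77.4 ± 93.7 (day 6) and 99.4 ± 12.7 CPM (day 20) in CD4 T cells, with tumours of day 6 from 0 to 232 CPM. Klf2 means were 101 ± 62.2, 80.0 ± 61.7, 171 ± 248 and 227 ± 117 CPM at the 4 days, and the day 16 mean was set by SCC35 tumour 1 at 608 CPM. By edgeR, 0 of 5 members tested were called between day 6 and the last day (SCC32 and SCC40), beside 1.40% of 3210 genes. The log2 fold changes were 1.68 for Tcf7 (SE 1.04, adjusted p = 0.436), 1.39 for Slamf6 (SE 0.89, adjusted p = 0.452), 0.79 for Il7r (SE 0.80), 0.74 for Ccr7 (SE 0.78) and -0.05 for Klf2 (SE 0.46), and the unadjusted p was above 0.05 for each. From day 6 to day 10, 0 of 5 were called as well (adjusted p 0.471 to 0.970, unadjusted p from 0.172), beside 3.49% of genes. Among the called genes, Cxcr6, a receptor of tissue T cells (1.67, SE 0.26, adjusted p = 0.00305), and Cd28 (1.02, SE 0.25) were higher at day 10. Of 9 tested exhaustion and activation receptors, 3 were higher (Pdcd1 at 1.27, SE 0.34, Tigit and Rgs16) and Tnfrsf9 (-1.17, SE 0.30) was lower. Of 13 tested cytotoxic and effector genes, Tbx21 (4.40, SE 1.01) was higher, and Ifng (-1.22, SE 0.27) and Ccl4 (-4.08, SE 0.85) were lower. That list's median was 0.32, against 0.11 over all genes. The T cell marker sum in CD4 sums had a median of 2098 CPM at day 6 and 4364 CPM at day 10, and the macrophage marker sum of 292 and 90.5 CPM. Their part in these changes was not tested.

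Lines were compared at day 10, where line and library cannot be told apart outside the mixed library. In CD8 T cells (SCC31, SCC32 and SCC40), 0 of 4 members tested were called, and 0% of 2542 genes were (edgeR; 93 genes had an unadjusted p under 0.05, and DESeq2 called 1 gene). In CD4 T cells of all 5 lines, 0 of 5 members were called beside 4.89% of 3210 genes. Klf2 had an unadjusted p of 0.0382 (edgeR adjusted p = 0.223), and without the low count filter its adjusted p was 0.0224 (1 of 7 members, beside 2.67% of genes). Its level in CD4 T cells at day 10 was 172.5 CPM in SCC31 (1 tumour), 175 CPM in SCC35 (1 tumour), 67.4 and 24.7 CPM in SCC32, 74.0 and 14.1 CPM in SCC37 and 91.8, 9.78 and 90.5 CPM in SCC40. The highest values thus came from the lines with 1 tumour each.

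With lines as the unit, rejected and non-rejected lines at day 10 were set side by side for each member. In CD4 T cells (2 against 3 lines) the ranges overlapped for all 7 members, and the lowest two-sided exact permutation p was 0.4 (Slamf6), where 0.2 is the smallest the design allows. Tcf7 line means lay at 9.81 and 10.8 CPM in the rejected lines and between 0 and 16.6 CPM in the others. In CD8 T cells only SCC32 stood for the non-rejected lines, so no difference could pass: the smallest p was 0.667. Tcf7 there was at 31.01 and 62.4 CPM in the rejected lines and 75.8 CPM in SCC32.

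CD8 T cells with a Tcf7 UMI were then compared with those without in the 7 tumours with at least 5 cells of each (46 and 274 cells). Tcf7 chose the cells, so its own level is no result. Ccr7 was higher in the Tcf7-positive cells of all 7 tumours. Their levels were 1089 against 99.6 CPM (SCC40 day 10 tumour 3), 804 against 105 CPM (SCC32 day 16 tumour 1), 785 against 48.2 CPM (SCC31 day 10 tumour 3) and 415 against 164 CPM (SCC35 day 20 tumour 3). In the other 3 they were 263 against 34.6 CPM (SCC32 day 20 tumour 2), 258 against 142 CPM (SCC32 day 10 tumour 1) and 76.2 against 45.3 CPM (SCC40 day 16 tumour 1). All but the last Tcf7-positive value stood above the highest Tcf7-negative value.

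The mean Ccr7 difference was 2.18 ± 1.26 on the log2(CPM + 10) scale (SD, n = 7, two-sided exact sign-flip p = 0.0156, the smallest that 7 tumours allow, 1 of 6 such tests). Pooled, 50% of the Tcf7-positive cells had a Ccr7 UMI (median 3127 UMIs) and 9.12% of the others (median 2220.5 UMIs). A list of 7 mature dendritic cell genes (Cd74, H2-Ab1, Fscn1, Ccl22, Ccl17, Cacnb3 and Il4i1) was added after the data were seen. It summed to 252 CPM in all CD8 T cells with a Tcf7 UMI and to 728 CPM in those without. Sorted by Ccr7 itself, the same sum in CD8 T cells was 381 CPM with no Ccr7 UMI and 227 CPM with 1. It was 2535 CPM with 2 to 4, 981 CPM with 5 to 9 and 4130 CPM with 10 or more. With 2 to 4, most of it was Cd74 (1747 CPM) and H2-Ab1 (748 CPM). Fscn1 and Ccl22 were at 3.98 and 0 CPM there, against 21.4 and 0.455 CPM with no Ccr7 UMI. With 10 or more they were at 169 and 186 CPM. The sum thus moved unevenly with Ccr7, and its part in the difference was not tested. Only 2 tumours had enough cells without any UMI of other cells, with a mean difference of 2.22.

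The other 5 members did not pass this test. Pooled levels in Tcf7-positive and Tcf7-negative cells were 47.5 and 12.8 CPM for Lef1, 111 and 61.8 CPM for Il7r, 36.9 and 18.6 CPM for Slamf6, 36.9 and 23.3 CPM for S1pr1 and 111 and 128 CPM for Klf2. Mean differences over the tumours ranged from -0.01 (Klf2) to 0.45 (Lef1), each smaller than its SD, and the exact sign-flip p values from 0.563 to 0.969. The edgeR fit tested 552 genes and 0 of the members, which were too sparse. Without its filter, Ccr7 was called (log2 fold change 2.31, SE 0.34, edgeR adjusted p = 7.16e-09), 1 of 6 members, beside 1.63% of 12605 genes. Leaving out the filter gave smaller SEs in the comparison of the subsets, so this p value adds nothing to the exact test over 7 tumours.

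All 5 tested genes of the cytotoxic and effector list fell in the Tcf7-positive CD8 T cells, where 24.8% of the 552 genes were called. These were the chemokines Ccl5 (1789 against 5202 CPM pooled, log2 fold change -1.53, SE 0.32) and Ccl4 (164 against 831 CPM, -2.42, SE 0.55), the granule genes Nkg7 (-0.76, SE 0.17) and Gzmb (533 against 1096 CPM, -1.19, SE 0.33) and the effector regulator Id2 (-0.92, SE 0.28). The edgeR adjusted p lay between 0.00258 and 0.0246. The list's median was -1.19, against -0.12 over all genes. Over all tumours, the CD8 genes were lower in the Tcf7-positive cells as well (751 against 1199 CPM), as were T cell markers (2629 against 3405 CPM). Fibroblast markers stood at 37.6 against 338 CPM. The part of these shifts in the changes was not tested. No tested gene of the other lists was called: 0 of 3 other naive, memory and stem-like genes (median 0.21), 0 of 2 partners and ligands and 0 of 1 exhaustion and activation receptors. Most genes of these lists lay below the filter. Examples of those, at pooled levels that were not tested over tumours, are Dapl1 at 185 against 19.8 CPM and Pdcd1 at 26.4 against 142 CPM. Havcr2, which encodes TIM-3, was at 0 counts (up to 15.8 CPM is allowed by a count of 0) against 37.3 CPM. These examples were picked from many untested genes and do not show how the rest of their lists went.

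**Figure D4:**
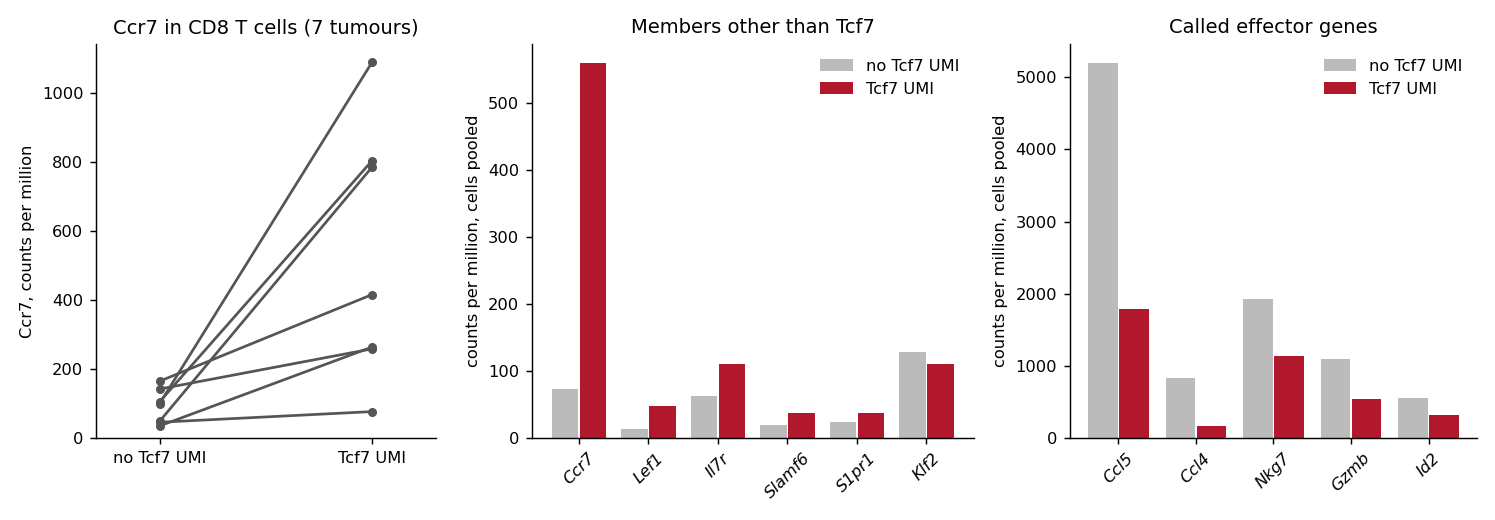
CD8 T cells with and without a Tcf7 UMI in 7 tumours: Ccr7 in each tumour (left, a line per tumour), and levels pooled over the tumours of the other members (middle) and of the 5 called effector genes (right), in CPM. Ccr7 is higher in the Tcf7-positive cells of each tumour, and the 5 effector genes are lower.

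Some pairs of members were found together within cells more often than others. Among CD8 T cells a Ccr7 UMI was found in 47.8% of the 90 cells with Tcf7, 33.9% of the 59 with Lef1 and 39.1% of the 46 with S1pr1, against 13.995% of all 836. A Klf2 UMI was found in 52.2% of the S1pr1-positive cells, against 20.1% of all. In CD4 T cells the same shares were 15.6% (32 cells), 9.38% (64 cells) and 13.9% (36 cells) for Ccr7, against 8.11% of all, and 22.2% for Klf2 with S1pr1, against 11.1%. Other pairs were not found together more often: a Lef1 UMI was found in 6.52% of CD8 T cells with S1pr1 and 7.09% of those without, a Slamf6 UMI in 2.98% with Klf2 and 3.14% without, and in CD4 T cells a Tcf7 UMI in 2.17% with Il7r and 3.29% without. Cells with more members had more UMIs (medians of 1742 with none and 3116.5 with 2 in CD8), so depth moves with these shares, and its part was not tested.

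Regulatory T cells were set apart by Foxp3, their defining factor, found in 79 of 1036 CD4 T cells. The 10 tumours with at least 3 Foxp3-positive and 3 Foxp3-negative cells held 55 and 510 of them. Regulatory genes were higher in the Foxp3-positive cells for 4 of 7 tested, including Ikzf2 (log2 fold change 3.61, SE 0.29, edgeR adjusted p = 4.30e-08) and Il2ra (2.29, SE 0.27, adjusted p = 7.43e-06). None of the members passed the low count filter in this fit, in which 4.61% of 499 genes were called. Without the filter 0 of 7 were called, where 2.97% of 13679 genes were, and Tcf7 had the lowest p (unadjusted 0.00698, edgeR adjusted p = 0.132). Pooled over all tumours, Slamf6 was at 50.6 CPM in the Foxp3-positive and 24.3 CPM in the Foxp3-negative cells, Il7r at 125 and 79.8 CPM, S1pr1 at 23.6 and 11.3 CPM, Lef1 at 23.6 and 21.3 CPM and Klf2 at 111 and 111 CPM. Within the 10 tumours, the fit without the filter gave other directions for some of them. Its log2 fold changes were 0.39 for Slamf6 (SE 0.55), -0.36 for Il7r (SE 0.46) and 0.60 for S1pr1 (SE 0.71). They were -0.36 for Lef1 (SE 0.66) and -0.97 for Klf2 (SE 0.50). No Tcf7 UMI was found in 79 Foxp3-positive cells, which allows a share of up to 3.797% of cells and a level of up to 10.1 CPM (counting error only). The other CD4 T cells had a Tcf7 UMI in 3.34% of cells and a level of 13.96 CPM, so the limit lay above their share and below their level. Ccr7 was at 233 and 82.1 CPM, but 36 of the 69 counts in Foxp3-positive cells came from 3 cells of SCC31 day 10 tumour 3.

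Klf2 UMIs moved with stromal RNA. In CD8 T cells the summed fibroblast markers stood at 773 CPM with a Klf2 UMI and 61.8 CPM without. The macrophage sum was 118 CPM with and 133 CPM without, and the endothelial sum 12.15 and 12.03 CPM. Over all T cells, the stromal gene Sparc stood at 91.9 CPM in cells with no Klf2 UMI, 368 CPM with 1, 1043 CPM with 2 to 4 and 1523 CPM with 5 or more. Cd3e went from 623 to 109 CPM over the same cells. The 68 cells with 5 or more Klf2 UMIs, 2.27% of T cells, held 52.1% of all Klf2 counts. They were also deeper, with a median of 11238 UMIs against 1861.5 in cells with no Klf2 UMI, and the part of depth was not tested. In the 66.4% of T cells with no UMI of 25 marker genes of macrophages, dendritic cells, fibroblasts, vessels and melanocytic cells, Klf2 was at 80.9 CPM, against 192 CPM in the rest. The split was sharper in CD4 (35.6 against 198 CPM) than in CD8 T cells (106 against 178 CPM), although this difference was not tested. Tcf7 went the other way in CD8 T cells, at 55.7 CPM in cells free of such UMIs and 34.4 CPM in the rest, and so did Lef1 (34.4 against 14.9 CPM) and Il7r (79.0 against 35.2 CPM).

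Ccr7 was concentrated in a few cells. The 23 T cells with at least 10 Ccr7 UMIs, 0.769% of all, held 38.4% of its counts. The 7 mature dendritic cell genes summed to 10892 CPM in them, against 589 CPM in T cells with no Ccr7 UMI, and Cd74, which encodes the invariant chain of MHC class II, alone to 7807 against 418 CPM. Their Cd3e level was 339 CPM, against 544 CPM. Their median depth was 7090 UMIs, against 1872 UMIs, and the part of depth was not tested. In CD8 T cells with 1 Ccr7 UMI the dendritic sum was 227 CPM, below the 381 CPM of cells with none, while Tcf7 was at 89.7 against 26.9 CPM. The dendritic sum was 2535 CPM in CD8 T cells with 2 to 4 Ccr7 UMIs and 981 CPM with 5 to 9. Cd74 and H2-Ab1 made up nearly all of both. Over all T cells it was 2917 CPM with 2 to 4 Ccr7 UMIs and 3553 CPM with 5 to 9, and these cells held 31.8% and 18.0% of Ccr7 counts. The sum thus stood above that of cells with no Ccr7 UMI from 2 UMIs on. The planned dendritic cell markers were Flt3, Zbtb46, Xcr1, Cd209a and Clec9a. They summed to 7.45 CPM in CD8 T cells with a Ccr7 UMI (4 counts) and 2.28 CPM in those without (5 counts). In CD4 T cells they summed to 29.3 CPM (14 counts) and 6.72 CPM (19 counts).

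**Figure D5:**
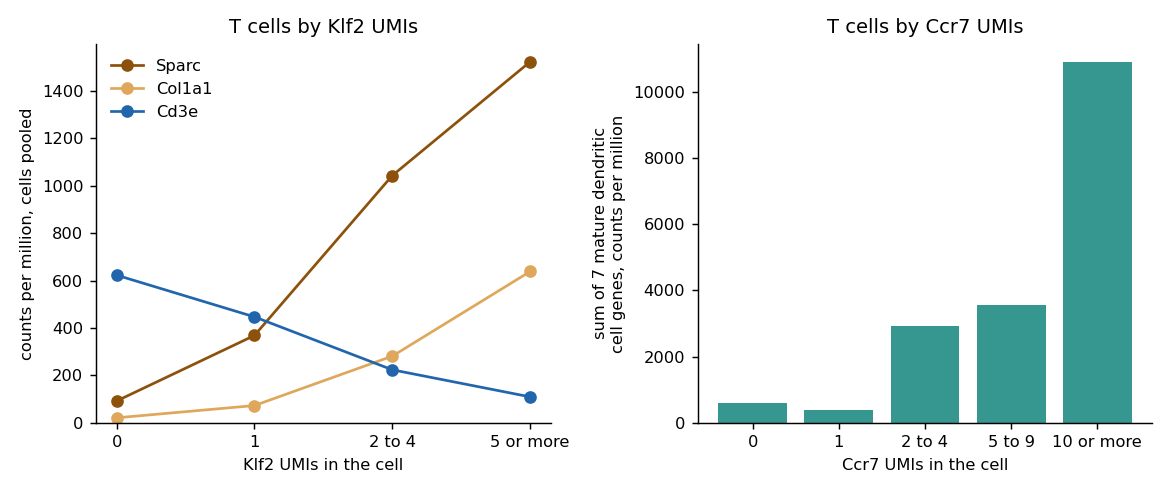
T cells grouped by their own Klf2 UMIs (left, levels of the stromal genes Sparc and Col1a1 and the T cell gene Cd3e) and by their Ccr7 UMIs (right, summed level of 7 mature dendritic cell genes), in CPM over the pooled cells. Sparc rises from 91.9 to 1523 CPM with Klf2 UMIs while Cd3e falls, and the dendritic sum is highest, at 10892 CPM, in the cells with 10 or more Ccr7 UMIs. Cells with more Klf2 or Ccr7 UMIs also had more UMIs in all.

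Across the 37 tumours with at least 10 T cells, the genes most like each member were ranked by Pearson's r of log2(CPM + 10) among 2831 genes with a mean of at least 50 CPM. These tumours share libraries and differ in depth, so the values are a description. For Klf2 they were Plvap, a gene of vessel endothelium (r = 0.66, Spearman's rho = 0.70), Fos (r = 0.64) and Ppp1r14b (r = 0.62). For Tcf7 they were Tuba4a (r = 0.60), Bud31 (0.58) and Snhg3 (0.57), for Lef1 Serpinb6b (0.57), Ctsc (0.56) and Ttc39c (0.56), and for Slamf6 Gmfg (0.59), Arhgap31 (0.59) and Tnfrsf4 (0.58). For Il7r they were Rnasek (0.73), Gem (0.71) and Ubl5 (0.71), for Ccr7 Mrps26 (0.77), Chchd1 (0.74) and Bola3 (0.73), and for S1pr1 Rnf138 (0.63), Aftph (0.55) and Srrm1 (0.53). Between members the highest r were 0.41 (Slamf6 and S1pr1) and 0.39 (Tcf7 and Lef1), and Klf2 and S1pr1 stood at 0.03.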

How the data were processed

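Members and gene lists were chosen with earlier results of these data known. The deposited files hold raw UMI counts per gene and cell from 5′ 10x libraries, made with Cell Ranger 6.0.0 and build mm10 per the submitters' processing notes; hashtag counts were deposited beside them. Barcodes with at least 300 genes and at most 15% mitochondrial UMIs were kept, assigned to a tumour by a leading hashtag of at least 10 counts and 2 times the next, and freed of Scrublet doublets (scanpy 1.11.5). Counts were summed per tumour and subset, with at least 10 cells, and tested by edgeR 4.0.16 (TMM, filterByExpr, quasi-likelihood, Benjamini-Hochberg threshold 0.05), with DESeq2 1.42.0 as an alternative. The scripts were tested on simulated data. Replicates are tumours, and within-tumour comparisons carry the tumour as a term. The exact sign-flip tests, the Foxp3 comparison with at least 3 cells, the gate without UMIs of 25 other-cell genes and the list of mature dendritic cell genes were added after the data were seen. Intervals cover counting error only. Genes named beside the members are those of the lists that passed the threshold, plus listed genes given as pooled levels. T cells of day 0 samples were left out. Results for some genes are not reported here.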

Additional observations from a re-analysis of the deposited data

Results flagged for a closer look

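A single tumour stood apart from the others of its day, by Dixon's criterion, in 7 of 49 groups of 4 to 10 tumours. The criterion's rate of about 1 in 20 by chance holds for normally distributed values, not for sparse counts with many zeros. A group with 1 tumour above 0 is always flagged, as for Slamf6 and Lef1 below. The number of flags therefore cannot show an excess over chance. In CD8 T cells, Slamf6 at day 6 was at 22.0 CPM in SCC31 tumour 3 (1 count) and at 0 in the other 3 tumours. Ccr7 at day 20 was at 249.9 CPM in SCC35 tumour 3 (30 counts), where the next tumour was at 107 CPM. Klf2 at day 10 was at 232 CPM in SCC40 tumour 1 (11 counts), with the next at 151 CPM, and at day 20 at 400.5 CPM in SCC35 tumour 1 (23 counts in 29 cells), with the next at 142 CPM.

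In CD4 T cells, SCC35 day 16 tumour 1 (12 cells) stood apart for both Klf2, at 608 CPM (28 counts) against 127 CPM in the next tumour, and Tcf7, at 43.4 CPM (2 counts) against 11.9 CPM. Lef1 at day 6 was at 23.4 CPM in SCC40 tumour 1 (2 counts) and at 0 in the other 4 tumours.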

How the results depend on the processing

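Across the alternatives run, the Tcf7 difference between CD8 and CD4 T cells kept its direction and its exact sign-flip p stayed under 0.05 (mean 1.19 to 1.55 with 1 tumour left out). Its size depends on the pseudocount, from 0.64 at 50 CPM to 2.25 at 1 CPM, as does that of Slamf6, from -0.40 to -2.20. The Slamf6 difference ranged from -1.21 to -0.88 with 1 tumour left out, and did not pass with at least 3 Cd3 UMIs (-0.78) or in cells without UMIs of other cells (-0.82). The Ccr7 difference between Tcf7-positive and Tcf7-negative cells ranged from 1.92 to 2.44 with 1 tumour left out; without the mixed library (1.73, 4 tumours) and without UMIs of other cells (2.22, 2 tumours) too few tumours were left to pass. Causes were not tested, except that leaving out cells or tumours lowers the numbers by construction.

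Counts of genes called moved more. CD8 against CD4 called 298 genes, 494 with at least 20 cells and 236 to 330 with 1 tumour left out; without the low count filter 1 member was called. The Tcf7 comparison called 137 genes, 46 without Scrublet calls (1 member), 2 without UMIs of other cells, 76 without the mixed library and 105 to 130 with 1 tumour left out (0 to 1 members); without the filter 1 member was called. The Foxp3 comparison called 23 genes, 38 without Scrublet calls, 406 without the filter, 35 without the mixed library and 18 to 36 with 1 tumour left out.

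Last day against day 6 in CD8 T cells called 158 genes and 1 member, with 55 and 0 by DESeq2, 90 and 0 without Scrublet calls, 347 and 2 without the filter, 87 and 2 without the mixed library, 11 genes at a hashtag ratio of 4 and 0 members in all T cells together; with 1 tumour left out there were 12 to 257 genes and 0 to 2 members. Il7r turned to -1.46 at a hashtag ratio of 4, to -0.39 without the mixed library and to as low as -0.36 (up to 0.68) with 1 tumour left out. Day 10 against day 6 called 7 genes, 3 with double-positive cells in both subsets, 0 with at least 3 Cd3 UMIs, at a hashtag ratio of 4 or without Scrublet calls, 33 without the filter, 18 without the mixed library, 39 in all T cells together and 0 to 51 with 1 tumour left out. The lines at day 10 gave 0 genes, 1 by DESeq2, 11 without UMIs of other cells, 11 without the filter and 83 in all T cells together.

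In CD4 T cells, last day against day 6 called 45 genes, 26 with double-positive cells, with DESeq2 size factors or without Scrublet calls, 1 with at least 3 Cd3 UMIs, 18 at a hashtag ratio of 4, 4 with at least 20 cells, 2 without UMIs of other cells, 156 without the filter, 23 without Foxp3-positive cells or without the mixed library, 170 in all T cells together and 5 to 138 with 1 tumour left out. Its Klf2 change turned positive at 0.82 with at least 3 Cd3 UMIs, 0.85 with at least 20 cells, 0.22 without Scrublet calls, 5.72 without UMIs of other cells, 0.0058 without the filter and 0.10 without Foxp3-positive cells, and ranged from -0.50 to 0.23 with 1 tumour left out. Ccr7 turned to -1.02 without Scrublet calls and ranged from -0.031 to 1.79. Day 10 against day 6 called 112 genes, 66 by DESeq2, 3 with at least 3 Cd3 UMIs, 56 at a hashtag ratio of 4, 10 without UMIs of other cells, 190 without the filter, 183 without Foxp3-positive cells, 39 in all T cells together and 29 to 326 with 1 tumour left out. The lines at day 10 called 157 genes, 305 at a hashtag ratio of 4, 390 without the filter (1 member), 83 in all T cells together and 42 to 208 with 1 tumour left out.

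Tumour numbers did not mark shared animals, and same-numbered tumours deviated together with a median r of -0.10 in CD8 and 0.03 in CD4 T cells, so they were not paired. With the replicate block, the last day against day 6 called 100 genes and 0 members in CD8 T cells, with Tcf7 at 0.027, day 10 against day 6 called 1 gene, and Klf2 in CD4 T cells was at 0.15. Depth limits the rest: most members had a few counts per tumour, so Lef1, S1pr1 and Slamf6 did not pass the low count filter over days in CD8 T cells.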
